A study of Mus musculus with 12 samples.

Results

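Tumors that grew from Lats1/Lats2-null cells under the renal capsule of mice were compared with proximal tubule cells sorted from kidney, gene by gene, in bulk RNA-seq libraries. The comparison used 3 allograft tumor libraries and 3 sorted proximal tubule libraries of the 12 in the series; 3 primary kidney tumors and 3 lung metastases make up the rest and entered the same statistical fit. Of 24432 genes in the expression table, 16313 were tested, those at 1 FPKM or more in any 3 libraries of the 12. FPKM is a gene's level corrected for its length and for the size of the library. The allograft tumors carry the genotype Lats1-/-;Lats2-/-. The hosts were NOD/scid mice aged 6 to 8 weeks, and the tumors were dissected 6 weeks after cells had been placed beneath the renal capsule, and the strain background of the cells is given as mixed. NOD/scid is an immunodeficient mouse strain that lacks mature T and B cells but keeps macrophages and neutrophils. The sources used here do not say whether the implanted cells came from 1 clone, from culture or straight from a tumor. The tumors were not sorted, so host stroma, vessels and blood cells contribute RNA to each library. The comparison cells were isolated by fluorescence-activated sorting from adult mice of genotype Slc34a1CreERT2;Lats1c/c;Lats2c/+;RosaTomato, on a mixed background. In this line the Slc34a1 locus, active in the proximal tubule, drives a tamoxifen-inducible Cre recombinase, and RosaTomato is a red fluorescent Cre reporter. These cells carry conditional alleles of Lats1 (both copies) and Lats2 (1 copy). The table's columns call them wild type, while tamoxifen treatment and recombination are not stated for them. The sex of the mice, and whether replicates came from separate animals, are not given either. P-values and standard errors therefore measure spread between libraries within groups, which may be technical. That spread was pooled over all 4 groups of the fit, the primary tumors being the most spread, and not over the compared groups alone. Primary tumors and metastases came from Slc34a1CreERT2;Lats1/2flox/flox mice injected 3 times with tamoxifen at 1 month of age and were collected 4 months later.

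LATS1 and LATS2 are the terminal kinases of the Hippo pathway. They phosphorylate the coactivators YAP and TAZ (the product of Wwtr1), which holds them out of the nucleus; without LATS, YAP and TAZ bind TEAD factors and switch on genes for growth, adhesion and matrix. The proximal tubule is the segment of the nephron that reclaims most filtered glucose, amino acids, phosphate and protein. It depends on fatty acid oxidation in densely packed mitochondria and makes glucose from lactate and amino acids, under the control of factors such as HNF4A.

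The libraries differed in composition as well as in single genes. FPKM values summed to 1352265 to 2527747 in the allografts and to 706093 to 738052 in the sorted cells. A single microRNA entry, Mir6236, took 23.5% to 42.8% of the allograft sums and at most 0.00775% of the sorted sums, and protein-coding genes took 27.1% to 42.5% against 82.1% to 83.3%. More genes were above 0 in the allografts (19291 to 20387) than in the sorted cells (15574 to 15696). The 107 small nucleolar RNA genes tested had a median log2 change of 3.47 and 65 of them rose, with none falling. Library making and RNA source cannot be told apart for such classes, because every sorted library belongs to 1 group. Each gene was therefore judged on 2 scales, the FPKM values as deposited and the same values after median-of-ratios scaling, which sets libraries to the same typical gene. "Rose" and "fell" are used only where limma gave an adjusted p under 0.05 in the same direction on both. Log2 changes are allograft minus sorted proximal tubule on the log2(FPKM + 1) scale, as deposited, with their standard error; adding 1 understates the change of low genes. Within a group the libraries correlated at 0.919 to 0.949 (allografts) and 0.961 to 0.969 (sorted cells) over genes, and between the groups at 0.554 to 0.588.

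More genes changed than did not. Of 16313 genes tested, 8521 (52.2%) were called higher and 2755 (16.9%) lower as deposited (69.1% in all), and 6106 (37.4%) higher and 4582 (28.1%) lower after median-of-ratios scaling. On both scales 6106 genes (37.4%) rose and 2755 (16.9%) fell, together 54.3%. The median log2 change over all genes was 0.66 as deposited and 0.19 after scaling. A change of at least 4-fold on both scales was reached by 1943 of the risen and 1071 of the fallen genes. In 75.6% of genes the 3 and 3 libraries did not overlap as deposited (61.5% on both scales), so most genes were without overlap. Rescaling every library to the same sum (TPM) moved the split further, to 3503 higher (21.5%) and 6908 lower (42.3%). Of the risen genes 3499 were also called higher on that scale, and all 2755 fallen genes were also called lower.

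**Figure D1:**
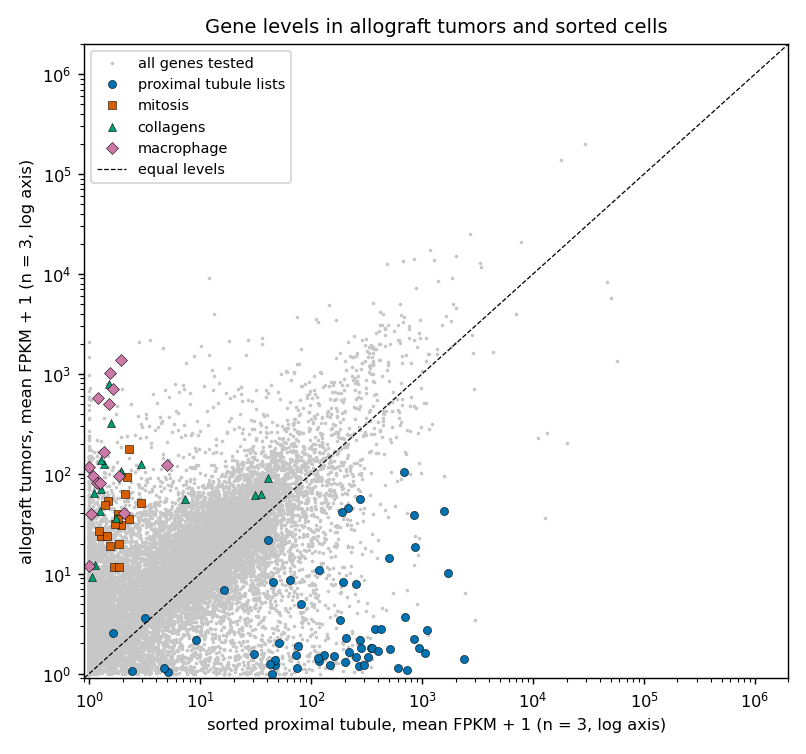
Mean level of each of the 16313 tested genes in the 3 sorted proximal tubule libraries (horizontal axis) and the 3 allograft tumors (vertical axis), as FPKM + 1 on log axes. Genes of the proximal tubule lists lie far below the line of equal levels, and mitosis, collagen and macrophage genes above it.

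The deepest falls were genes that define the proximal tubule. Ranked by log2 change among genes at 10 FPKM or more in the higher group, the 10 largest included Miox, Gsta2, Hao2, Slc34a1, Hpd, Cltrn, Slc27a2 and Fxyd2. Miox, the myo-inositol oxygenase of the proximal tubule, was 2162 to 2583 FPKM in the sorted libraries and 0.932, 0.185 and 0.0967 in allografts 1 to 3 (log2 change -10.78 ± 1.38, adjusted p = 6.37e-05). Slc34a1, the sodium-phosphate cotransporter whose locus drives the Cre, lies at chr13:55398187-55415592 on the plus strand of GRCm38. It stood at 866, 893 and 1039.8 FPKM in the sorted libraries and 1.37, 0.97 and 0.12 in the allografts (log2 change -9.07 ± 1.27, adjusted p = 0.00011). Allograft 3 held the least and no allograft came near the sorted libraries. Cltrn, which traffics amino acid transporters to the brush border, fell from 918, 1172 and 1305 FPKM to 1.68, 2.37 and 0.304. Fxyd2, the gamma subunit of the sodium-potassium pump, fell by a log2 change of -8.73 ± 0.81 (adjusted p = 1.10e-05).

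Transporters fell as a group. Of 26 proximal tubule transporter genes tested (27 listed), 23 fell and none rose, with a median log2 change of -5.72 against 0.66 over all genes. Their summed level was 70.7, 131 and 76 FPKM in allografts 1 to 3 and 5371 to 6652 in the sorted cells. Slc5a2, the sodium-glucose cotransporter SGLT2, was 272, 361 and 333 FPKM in the sorted libraries and 0.29, 0.708 and 0.422 in the allografts (-7.78 ± 1.00, adjusted p = 6.41e-05). Slc22a6 and Slc22a8, which take up organic anions from the blood side, changed by -6.90 ± 1.41 and -7.81 ± 1.12. All 5 endocytic genes fell. Lrp2, which encodes the protein-reabsorbing receptor megalin, dropped from 800.2, 839 and 917 FPKM to 17.7, 25.4 and 8.94 (-5.65 ± 0.72, adjusted p = 6.26e-05). Its partner Cubn, encoding cubilin, changed by -7.06 ± 0.61, Amn, which carries cubilin to the surface, by -5.11 ± 0.67, and the endocytic adaptor Dab2 by -2.34 ± 0.36. The smallest fall was that of the chloride transporter Clcn5 (-0.92 ± 0.28, adjusted p = 0.013), whose call was lost without allograft 3 (adjusted p = 0.051).

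Metabolic enzymes of the segment fell too. Of 30 proximal tubule enzyme genes tested, 26 fell and none rose (median log2 change -6.33). Gluconeogenesis and fructose genes gave 9 fallen of 10. Pck1, the entry enzyme of gluconeogenesis, stood at 1171 to 2179 FPKM in the sorted libraries and 18.5, 102 and 3.99 in the allografts, Fbp1 changed by -7.72 ± 1.11 and G6pc, which releases glucose, by -7.94 ± 1.31. Allograft 2 held the most Pck1 and allograft 3 the least, all below the sorted range. Fatty acid oxidation genes fell in 20 of 21 and rose in none (median -2.62). The largest falls there were Cyp4a14 (-7.87 ± 0.80) and Cyp4a10 (-7.86 ± 1.13), omega-hydroxylases, and the peroxisomal Acaa1b (-7.14 ± 0.92) and Ehhadh (-6.00 ± 1.02). Acaa1b has a near-identical copy, Acaa1a, and the Cyp4a genes are close paralogs, so the split of reads within each family is uncertain. Ppara, the nuclear receptor that drives these genes, changed by -4.83 ± 0.63 and its coactivator Ppargc1a by -3.83 ± 0.43.

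Mitochondrially encoded transcripts fell steeply. They made up 30.0% to 35.4% of the protein-coding FPKM in the sorted cells and 1.80% to 3.06% in the allografts, and all 6 mitochondrial respiratory genes tested fell. mt-Nd4, a complex I subunit, was 21216, 21729.5 and 17677 FPKM in the sorted libraries and 123, 179 and 305 in the allografts (-6.73 ± 0.74, adjusted p = 2.47e-05). mt-Co1, of complex IV, changed by -2.46 ± 0.73, from 48487, 49317 and 40289 FPKM to 8337, 8823 and 7794. Nuclear respiratory genes moved less. Of 17, 6 fell, none rose and 7 were called on 1 scale only, with a median log2 change of -0.97. This count rests on single libraries: 1 fell without allograft 3 or sorted library 3, 2 without sorted library 2, 4 without allograft 2 or sorted library 1 and 8 without allograft 1. Sdha, of complex II, changed by -2.43 ± 0.46.

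Transcription factors of the nephron followed. Of 17 tested, 13 fell and 2 rose. Hnf4a was 203, 229 and 228 FPKM in the sorted libraries and 0.232, 1.23 and 0.213 in the allografts (-7.21 ± 0.76, adjusted p = 2.09e-05). The bile acid receptor gene Nr1h4 changed by -5.33 ± 0.64. Pax8 and Pax2, which mark the renal epithelial lineage, were lower yet still detected, Pax8 at 7.22, 16.8 and 12.2 FPKM in the allografts against 35.5 to 44.2 (-1.68 ± 0.30, adjusted p = 0.00061) and Pax2 at 0.859, 2.96 and 0.222 against 8.07 to 10.8. The 2 that rose, Eya1 and Wt1, act in the embryonic kidney. Eya1 was 3.7, 2.51 and 6.43 FPKM in the allografts and 0.19, 0.0408 and 0.0441 in the sorted cells (2.19 ± 0.29, adjusted p = 7.81e-05), and Wt1 was 1.92, 7.67 and 2.25 against 0.341, 0.384 and 0.214 (1.73 ± 0.38). Six2, a nephron progenitor factor, stayed under the filter on low values.

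The sorted libraries were not purely proximal tubule by their markers. Genes of other nephron segments summed to 364 to 625 FPKM in them, against 5371 to 6652 for the 26 transporters and 14487 to 14928 for the 30 enzymes. Umod, made by the thick ascending limb, stood at 159, 264 and 271 FPKM, the limb's Slc12a1 at 44.7, 75.7 and 90.5 and Aqp2, the collecting duct water channel, at 23.7, 31.4 and 31.6. Of 18 such genes tested, 14 fell in the allografts and 1, the magnesium channel gene Trpm6, rose (1.59 ± 0.28); the median was -2.59. Their part in the falls of genes shared between segments was not tested. Of 8 podocyte genes 3 rose, Ptpro and Synpo among them, and Clic5 and Nphs1 fell, against 37.4% and 16.9% of all genes. On the TPM scale 2 were higher and 3 lower. The call for Synpo (1.31 ± 0.25, adjusted p = 0.00078) was lost without allograft 2 or 3 (adjusted p = 0.051 to 0.055), and that for Nphs1 (-0.73 ± 0.25, adjusted p = 0.022) without allograft 1 or sorted library 1 or 3 (adjusted p = 0.053 to 0.075). In bulk samples such as these, fewer cells of a type and less RNA per cell cannot be told apart.

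**Figure D2:**
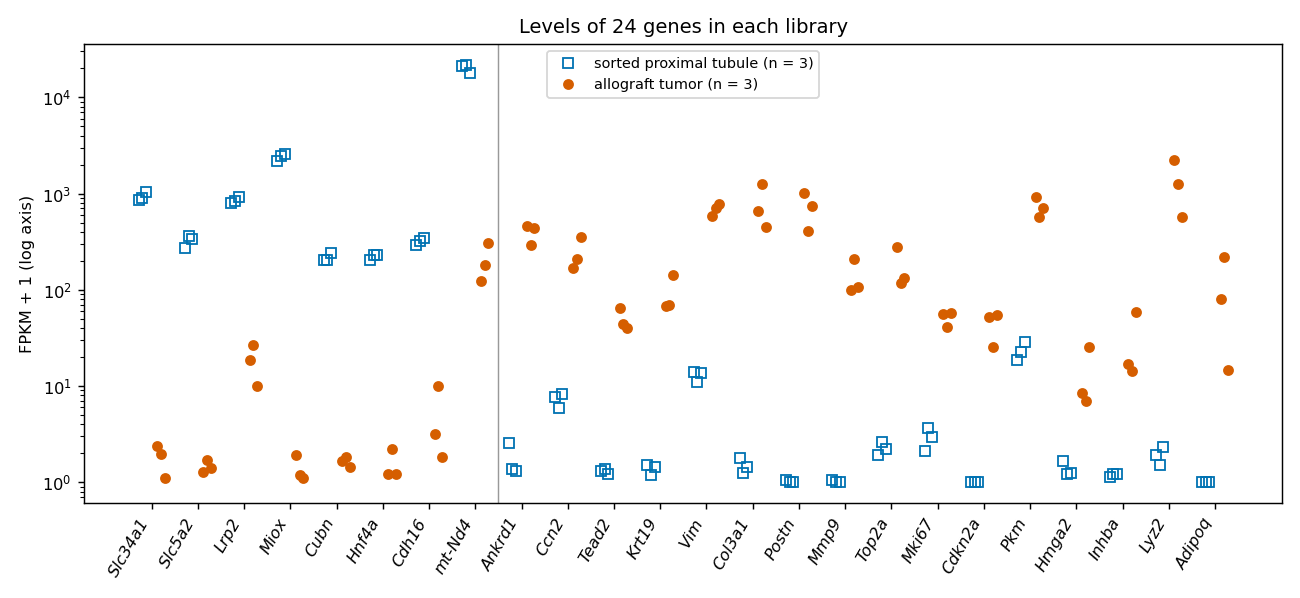
FPKM + 1 (log axis) of 24 genes in each of the 3 allograft tumors (filled circles) and each of the 3 sorted proximal tubule libraries (open squares). The 8 genes at the left, from Slc34a1 to mt-Nd4, are higher in every sorted library, and the other 16, from Ankrd1 to Adipoq, are higher in every allograft.

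Hippo pathway genes gave a mixed picture. Lats1 was 5.6, 7.82 and 7.29 FPKM in allografts 1 to 3 and 11.9, 12.7 and 12.8 in the sorted libraries (-0.78 ± 0.15, adjusted p = 0.00076; -1.37 after scaling), lower in every allograft. Lats2 was 12.2, 16.6 and 17.1 against 10.5, 10.7 and 11 and was called on neither scale (0.46 ± 0.19, adjusted p = 0.052; -0.14 after scaling, adjusted p = 0.59). Gene totals do not separate a transcript that lacks deleted exons from an intact one, so they do not check the deletion, and host cells in the tumors carry both genes. Yap1 and Wwtr1 were called on 1 scale only. Yap1 stood at 8.83, 14 and 21.9 FPKM in the allografts and 18.9, 18.9 and 18.9 in the sorted cells (-0.41 ± 0.24 as deposited, adjusted p = 0.16; -1.02 after scaling, adjusted p = 0.0042), and Wwtr1 changed sign with the scale (0.60 as deposited and -0.03 after scaling). Of 25 Hippo components tested, 12 rose and 3 fell, against 37.4% and 16.9% of all genes. The balance turned with the scale, with 12 higher and 7 lower after median-of-ratios scaling and 6 higher and 10 lower after rescaling to TPM. Tead2, one of the TEAD factors, was 63.3, 42.8 and 39.1 FPKM against 0.32, 0.387 and 0.23 (5.21 ± 0.49, adjusted p = 1.13e-05), and Tead4 1.89, 2.03 and 2.54 against 0.598, 0.38 and 0.323 (1.14 ± 0.21). Frmd6 (4.62 ± 0.31), an upstream activator, the TEAD cofactor Vgll3 (4.26 ± 0.47) and the kinase Map4k4 (3.67 ± 0.27) rose in every allograft. Besides Lats1, Wwc1, the scaffold KIBRA, fell (-2.18 ± 0.28, adjusted p = 5.84e-05), and so did Tead1 (-0.61 ± 0.23, adjusted p = 0.037), whose call was lost without allograft 1 or 2 or any 1 sorted library (adjusted p = 0.056 to 0.13). Without allograft 3, 6 components fell.

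YAP/TAZ target genes rose in 11 of 23 and fell in 2, against 37.4% and 16.9% of all genes, and after rescaling to TPM 7 of the 23 were called higher and 8 lower. Ankrd1, a classical YAP target that encodes a stress-responsive ankyrin repeat protein, lies at chr19:36111961-36120099 on the minus strand of GRCm38. It was 462, 294 and 442 FPKM in the allografts and 1.59, 0.376 and 0.307 in the sorted libraries (7.88 ± 0.59, adjusted p = 4.40e-06). Ccn2, the matricellular protein CTGF, stood at 169, 209 and 354 against 6.78, 4.93 and 7.3 FPKM (5.01 ± 0.43, adjusted p = 7.94e-06). Both were higher in every allograft than in any sorted library. Axl, a receptor tyrosine kinase, changed by 6.71 ± 0.47 and Ccdc80, a secreted matrix protein, by 6.87 ± 0.80. Ccn1, which encodes CYR61 and is another classical target, was called on neither scale, at 318, 248 and 204 FPKM in the allografts and 344, 248 and 131 in the sorted cells, and the groups overlapped (0.18 as deposited and -0.47 after scaling). Nuak2 (-1.86 ± 0.23), a kinase, and Nt5e (-1.27 ± 0.31), the ecto-5'-nucleotidase, fell.

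Promoters of the members were searched for the TEAD motif GGAATG and the AP-1 motif TGANTCA on both strands, because TEAD and AP-1 factors bring YAP and TAZ to DNA. The windows run from 250 bases before to 50 after the start of transcription and come from RefSeq on GRCm38.p6. Of 11 risen targets 9 had a window, and GGAATG was in 4 of them (44.4%: Ankrd1, Axl, Ajuba and Ptpn14), while 14.9% of the 12020 tested genes with a window and 14.7% of all 32851 windows held it. TGANTCA was in 1 of the 9 (11.1%), F3, against 6.86% of the tested genes with a window. The rise of Ajuba (1.42 ± 0.29, adjusted p = 0.0013) lost its call without allograft 3 or any 1 sorted library (adjusted p = 0.058 to 0.13), and that of F3 (1.28 ± 0.21, adjusted p = 0.00029) without allograft 3 or sorted library 3 (adjusted p = 0.054 to 0.066); on the TPM scale F3 was at -0.09. Among 54 fallen proximal tubule genes 48 had a window, of which 7 (14.6%) held GGAATG and 5 (10.4%) held TGANTCA. The windows are shown for the Ankrd1 and Axl genes, whose levels rose, and for Slc22a6, which fell, with GGAATG or its reverse complement CATTCC in capitals. A match is only a match of letters, and no binding was measured here. The list was made of known YAP/TAZ targets and those that did not rise were not counted. The share among risen targets therefore does not tie the motif to a rise.
Ankrd1 (chr19:36119795-36120094, minus strand): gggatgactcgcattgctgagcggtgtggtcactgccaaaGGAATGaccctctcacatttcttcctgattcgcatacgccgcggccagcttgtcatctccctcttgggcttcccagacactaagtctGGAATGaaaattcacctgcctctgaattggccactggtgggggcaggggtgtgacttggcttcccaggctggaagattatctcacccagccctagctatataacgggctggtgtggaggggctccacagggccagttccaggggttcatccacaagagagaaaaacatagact
Axl (chr7:25788684-25788983, minus strand): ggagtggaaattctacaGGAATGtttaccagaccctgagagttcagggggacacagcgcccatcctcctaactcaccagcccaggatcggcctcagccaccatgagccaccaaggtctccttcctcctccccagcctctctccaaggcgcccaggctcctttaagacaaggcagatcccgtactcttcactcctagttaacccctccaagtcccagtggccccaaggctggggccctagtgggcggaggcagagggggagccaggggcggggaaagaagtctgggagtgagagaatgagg
Slc22a6 (chr19:8617746-8618045, plus strand): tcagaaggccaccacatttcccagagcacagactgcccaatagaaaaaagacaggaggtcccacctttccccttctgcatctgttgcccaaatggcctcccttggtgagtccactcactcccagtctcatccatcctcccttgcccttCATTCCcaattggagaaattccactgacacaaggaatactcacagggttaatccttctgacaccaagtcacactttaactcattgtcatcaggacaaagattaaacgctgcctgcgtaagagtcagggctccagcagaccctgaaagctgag
In the Ankrd1 window the matches begin at -210 and -123 from the start of transcription, in the Axl window at -233 and in the Slc22a6 window at -102. The 3 windows hold no match of the other motifs searched. In the proximal tubule set the HNF4 motif CAAAGTCCA was found for 2 of the 48 genes with a window (4.17%: Aadat and Slc3a1), against 0.557% of tested genes with a window. This share rests on 2 genes of lists made of known proximal tubule genes, and members that did not fall were not counted. It does not tie the motif to a fall.

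More epithelial genes fell than rose, and mesenchymal genes were higher. Of 23 epithelial genes tested, 11 fell and 4 rose, against 16.9% and 37.4% of all genes. On the TPM scale 14 were lower and none higher. Cdh16, the kidney-specific cadherin, fell from 288, 324 and 345 FPKM to 2.16, 9.09 and 0.82 (-6.36 ± 0.63, adjusted p = 1.47e-05). Cdh1, E-cadherin, stood at 0.938, 7.87 and 2.01 FPKM in the allografts and 13.4, 16.1 and 16.9 in the sorted cells (-2.13 ± 0.45, adjusted p = 0.0017). Allograft 2 held the most and allograft 1 the least, and the groups did not overlap. Cldn2 (-5.55 ± 0.65) and Cldn10 (-5.06 ± 0.79), claudins of the proximal tubule and thick ascending limb, fell as well. Cldn4, a claudin of the distal nephron, went the other way at 6.97, 54.9 and 56.6 against 5.43, 2.95 and 4.49 FPKM (2.51 ± 0.68, adjusted p = 0.0071). The value was lowest in allograft 1, the groups overlapped after scaling, and the call was lost without allograft 2 or 3 or without sorted library 2 or 3 (adjusted p = 0.058 to 0.11). Tjp1, the tight junction protein ZO-1, rose too (1.39 ± 0.23, adjusted p = 0.00032). The other two risen members, Cldn3 (2.36 ± 0.68, adjusted p = 0.01) and Pkp2 (1.41 ± 0.25, adjusted p = 0.00046), lost their calls without single libraries, Cldn3 without allograft 2 or 3 or sorted library 1 or 3 (adjusted p = 0.054 to 0.092) and Pkp2 without sorted library 3 (adjusted p = 0.051). Without sorted library 3, then, 1 of the 4 was still called. Epcam, which marks epithelial cells in general, was 0.615, 22.9 and 8.21 FPKM against 6.67, 7.73 and 8.38, with nearly none in allograft 1. Of 18 mesenchymal genes 16 rose and none fell (median 2.89). Vim, vimentin, was 591, 713 and 777 FPKM against 13, 10.1 and 12.6 (5.75 ± 0.58, adjusted p = 1.59e-05), and Cdh2, N-cadherin, 100.2, 112 and 219 against 3.28, 4.51 and 2.96 (4.91 ± 0.71). Snai2 (1.82 ± 0.33) and Twist1 (2.90 ± 0.74), transcription factors of the mesenchymal programme, were low in level. Twist1 was 16.2, 11 and 1.96 FPKM in the allografts, least in allograft 3.

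Injury-associated tubule genes rose in 15 of 21 and fell in 1 (2 without allograft 2). Krt19, a keratin of simple epithelia, was 66.7, 68.8 and 140.1 FPKM against 0.528, 0.206 and 0.444 (5.98 ± 0.41, adjusted p = 2.99e-06), and Cd44, the hyaluronan receptor, 38.5, 34 and 40.9 against 0.372, 0.357 and 0.348 (4.83 ± 0.53). Anxa2, a membrane-binding annexin, changed by 5.16 ± 0.42. Sox9, a factor of regenerating tubules, was 3.74, 3.1 and 6.39 FPKM against 0.191, 0.112 and 0.241 (2.15 ± 0.35, adjusted p = 0.00032). Lcn2, the secreted injury marker NGAL, was uneven at 12.7, 108 and 13.4 FPKM, highest in allograft 2, against 0.6, 0.463 and 0.501 (4.19 ± 0.88, adjusted p = 0.0015). Prom1, encoding CD133, was the member that fell (-4.20 ± 0.54). Spp1, osteopontin, was called lower on 1 scale only (-1.25 ± 0.67, adjusted p = 0.12 as deposited and 0.03 after scaling).

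Extracellular matrix genes were much higher in the allografts. Collagens rose in 13 of 16 with none falling (median 5.22), and other matrix proteins in 16 of 19 with none falling (median 4.70). Summed collagen levels were 1906, 2946 and 1422 FPKM in the allografts and 104 to 139 in the sorted cells. Col3a1, a fibrillar collagen and one of the 10 largest rises among protein-coding genes, was 652, 1267 and 448 FPKM against 0.811, 0.237 and 0.454 (8.92 ± 0.77, adjusted p = 7.80e-06). Col1a1 and Col1a2 changed by 6.51 ± 0.57 and 7.62 ± 0.53. Postn, periostin, was 1022, 407 and 739.8 FPKM against 0.0683, 0 and 0 (9.37 ± 1.18, adjusted p = 5.80e-05), and Fn1, fibronectin, 333, 385 and 565 against 13.2, 9.52 and 8.58 (5.21 ± 0.67). Collagen was most abundant in allograft 2 while Fn1 was highest in allograft 3, so the 2 did not share an order among the tumors. Fibroblast and pericyte markers moved with the matrix: 9 of 14 rose and 1, Cspg4, fell (-0.84 ± 0.25), with sums of 405, 741 and 335 FPKM against 40.6 to 42.5. Among them Pdgfra was 7.21, 20.3 and 6.54 FPKM, Pdgfrb 20.4, 32.7 and 22.5 and Dcn, decorin, 129, 378 and 130.2, and all but 1 of the 14 were above 0 in at least 1 sorted library. The part of these cells in the matrix result was not tested.

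Matrix proteases and their inhibitors rose in 12 of 17 and fell in 2. Mmp9, a gelatinase, was 99.2, 209 and 107 FPKM in the allografts and 0.0601, 0 and 0 in the sorted cells (7.01 ± 0.52, adjusted p = 4.03e-06). Every allograft lay far above the sorted cells. The inhibitor Timp1 (6.99 ± 0.92), the membrane protease Mmp14 (4.74 ± 0.61) and the lysosomal collagenase Ctsk (6.72 ± 0.51) rose as well. The urokinase gene Plau fell (-2.19 ± 0.25, adjusted p = 3.08e-05), and Timp3, an inhibitor abundant in the sorted cells, fell from 597, 673 and 648 FPKM to 74.4, 127 and 59.6 (-2.93 ± 0.47).

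**Figure D3:**
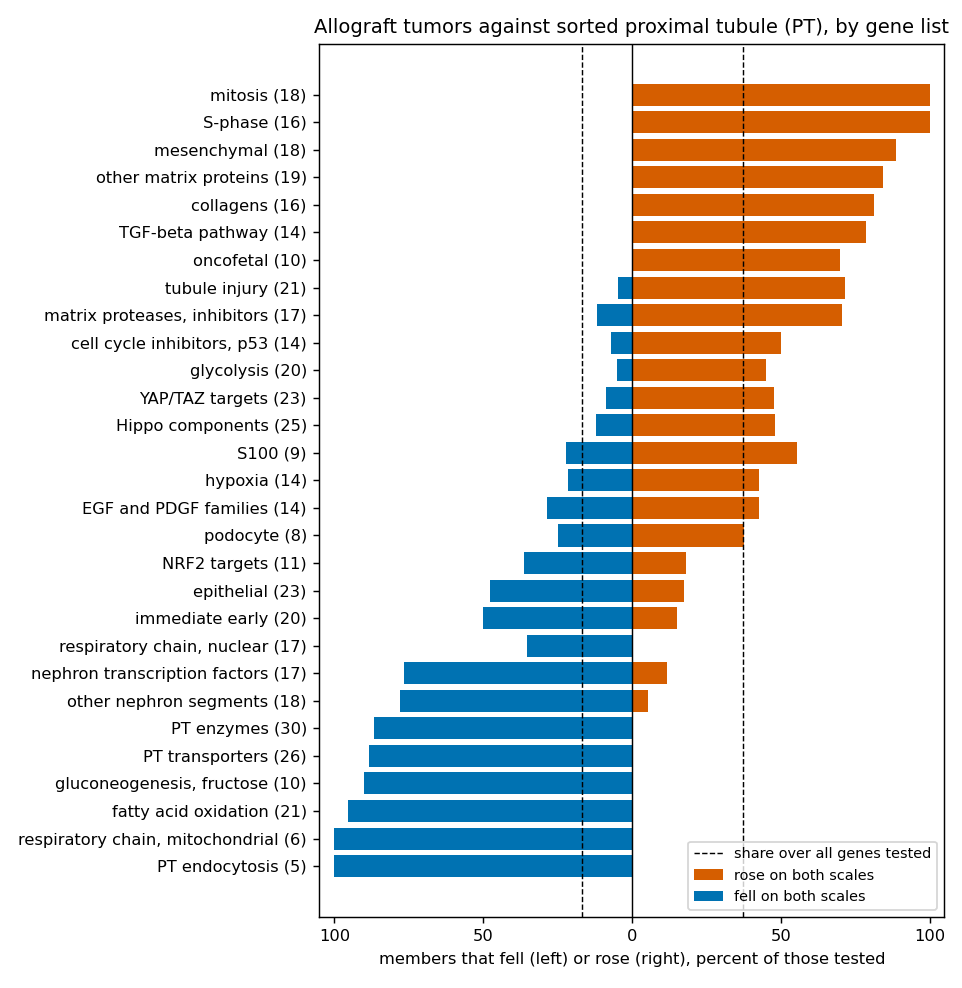
Share of tested members of each gene list drawn that rose (right) or fell (left) on both scales, in percent, with the number of members tested in brackets. The dashed lines mark the shares over all 16313 genes, 37.4% risen and 16.9% fallen. The lists drawn run from S-phase and mitosis, with every member risen, to proximal tubule endocytosis, with every member fallen. Lists of immune, endothelial, fibroblast, fat, muscle and red cell markers are not drawn. Nor are the MHC, interferon and renal cancer lists.

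Cell division genes rose without exception as deposited and after median-of-ratios scaling. All 16 S-phase genes rose (median 3.61), 14 of them also after rescaling to TPM, and all 18 mitosis genes rose (median 4.19) and did so on the TPM scale. Top2a, the topoisomerase that untangles chromosomes, was 281, 117 and 131 FPKM in the allografts and 0.914, 1.62 and 1.24 in the sorted cells (6.19 ± 0.65, adjusted p = 1.98e-05). Mki67, the proliferation marker Ki-67, stood at 54.5, 40.6 and 55.9 against 1.11, 2.7 and 1.94 (4.16 ± 0.54, adjusted p = 6.56e-05). Pcna, the DNA polymerase clamp, was 358, 180.4 and 216 against 26, 25.1 and 27.7 (3.15 ± 0.32). Allograft 1 was highest for Top2a and Pcna, allograft 3 for Mki67, and none overlapped the sorted cells. Mcm3 (4.61 ± 0.44) and Mcm5 (4.29 ± 0.44), of the replicative helicase, and the mitotic kinase gene Cdk1 (5.13 ± 0.66) rose likewise. Of 57 clustered histone genes tested 55 rose and none fell. Hist1h2ao, the largest rise among protein-coding genes, was 2697, 1526 and 1968 FPKM against 1.39, 4.09 and 0 (9.77 ± 0.82, adjusted p = 7.18e-06). Histone genes of a cluster are near-identical copies, so reads can be split between them, and most of their mRNAs lack a poly(A) tail; the sources used here do not give the kind of library.

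Several cell cycle inhibitor genes rose too. Cdkn2a, whose locus encodes p16INK4A and p19ARF, lies at chr4:89274471-89294653 on the minus strand of GRCm38. It was 50.9, 24.2 and 54.1 FPKM in the allografts and listed at 0 in all 3 sorted libraries (5.38 ± 0.27 on the log2(FPKM + 1) scale, adjusted p = 4.71e-07). Its neighbour Cdkn2b, encoding p15INK4B, was 40, 17.8 and 28.8 against 0.559, 0.666 and 0.359 (4.22 ± 0.33, adjusted p = 5.16e-06). Allograft 2 was lowest for both. Cdkn2c (1.79 ± 0.31) and the cyclin Ccnd2 (1.79 ± 0.36) rose, and Sesn2, a stress-responsive sestrin, fell (-1.73 ± 0.28). Of the 14 genes of this list of cell cycle inhibitor and p53 pathway genes 7 rose and 1 fell, against 37.4% and 16.9% of all genes. On the TPM scale 2 were called higher and 3 lower. Without allograft 3, 2 of them fell.

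Glycolysis genes moved in both directions. Of 20 tested, 9 rose and 1 fell, against 37.4% and 16.9% of all genes, with 6 called higher and 5 lower on the TPM scale. Pkm, pyruvate kinase of muscle type, was 931, 574 and 707 FPKM in the allografts and 17.7, 21.6 and 27.9 in the sorted cells (4.97 ± 0.30, adjusted p = 1.75e-06). Hk2, the inducible hexokinase, stood at 22, 24.8 and 46.4 against 0.103, 0.0266 and 0.0575 (4.84 ± 0.52, adjusted p = 2.22e-05). Pkm was highest in allograft 1 and Hk2 in allograft 3, and neither overlapped the sorted libraries. Slc16a3 (4.25 ± 0.43), which exports lactate, and Eno2 (3.10 ± 0.15), an enolase, rose. Ldhb, the lactate dehydrogenase subunit of oxidative tissue, fell from 680.1, 748 and 762 FPKM to 45.1, 39.1 and 35.3 (-4.17 ± 0.32, adjusted p = 4.57e-06). Of 14 genes that respond to low oxygen 6 rose and 3 fell, near the 37.4% and 16.9% of all genes, and on the TPM scale 4 were higher and 4 lower. Ankrd37 (2.86 ± 0.30), an ankyrin repeat gene, P4ha1 (2.53 ± 0.34), a collagen prolyl hydroxylase, and Adm (2.47 ± 0.39), adrenomedullin, rose, and Ndrg1 fell from 1980.5, 1464 and 1301 FPKM to 63.8, 75.3 and 143 (-4.12 ± 0.61). The hypoxia factor Epas1 (-2.18 ± 0.38) and the carbonic anhydrase Car12 (-2.20 ± 0.70, adjusted p = 0.016) were the other two that fell, and the call of Car12 was lost without allograft 1 (adjusted p = 0.062). Vegfa, the endothelial growth factor, overlapped between groups as deposited at 72.9, 89.5 and 188 and 159, 126 and 132 (-0.37 ± 0.46, adjusted p = 0.49). NRF2 targets gave 2 risen and 4 fallen of 11, and none higher and 7 lower on the TPM scale. Slc7a11, the cystine importer, rose (1.67 ± 0.19, adjusted p = 3.48e-05), as did G6pdx (1.71 ± 0.16), which supplies NADPH. Nqo1, a quinone reductase, fell (-3.22 ± 0.69, adjusted p = 0.0018) with the glutathione synthesis genes Gclc (-1.73 ± 0.37) and Gclm (-1.64 ± 0.46). Srxn1, sulfiredoxin, fell as well (-0.70 ± 0.27, adjusted p = 0.036), a call lost without allograft 1 or 2 or sorted library 2 or 3 (adjusted p = 0.082 to 0.1).

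Of 14 EGF and PDGF family genes tested, 6 rose and 4 fell, against 37.4% and 16.9% of all genes, and on the TPM scale 3 were higher and 5 lower. Egf fell from 107, 134 and 168 FPKM to 1.73, 1.55 and 1.24 (-5.76 ± 1.19, adjusted p = 0.0014) and the receptor genes Erbb3, Erbb2 and Erbb4 changed by -4.33 ± 0.44, -2.07 ± 0.21 and -2.40 ± 0.31. Hbegf (2.30 ± 0.21), a ligand of EGFR, and Pdgfa (2.74 ± 0.18) and Pdgfb (1.91 ± 0.26), ligands of PDGF receptors, rose. TGF-beta pathway genes rose in 11 of 14 with none falling on both scales. After median-of-ratios scaling 1 was lower, and on the TPM scale 8 were higher and 2 lower. Inhba, the activin A subunit, was 15.9, 13.4 and 57.6 FPKM against 0.14, 0.217 and 0.235 (4.34 ± 0.82, adjusted p = 0.00077), and the TGF-beta-induced Tgfbi 113, 94.5 and 97.8 against 0.52, 0.115 and 0.497 (6.23 ± 0.54). Ltbp2 (5.50 ± 0.50), which binds latent TGF-beta, and Tgfb1 (2.37 ± 0.41) rose. As deposited, allograft and sorted values did not overlap in 12 of 14 EGF and PDGF genes and 11 of 14 TGF-beta genes. Those named here are among them, and 75.6% of all genes were without overlap.

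Oncofetal genes, active in the embryo and low in most adult tissue, rose in 7 of 10 with none falling. Hmga2, a chromatin protein, was 7.49, 6 and 24.5 FPKM against 0.662, 0.22 and 0.238 (3.08 ± 0.41, adjusted p = 8.03e-05), and Hmga1 47, 45.9 and 96.7 against 5.55, 7.99 and 6.55 (2.98 ± 0.30). The imprinted growth factor Igf2 (2.40 ± 0.37) and its neighbour H19 (3.43 ± 0.61), a noncoding RNA, rose together, H19 at 60, 23.5 and 8.73 FPKM against 3.99, 0.472 and 0.584. Igf2bp2, an mRNA-binding protein, changed by 1.69 ± 0.26. Myc was called on neither scale, at 14.5, 17.7 and 46.2 FPKM in the allografts and 18.9, 19.1 and 10.6 in the sorted cells, which overlapped (0.52 as deposited, adjusted p = 0.33, and -0.09 after scaling). Among S100 genes, which encode small calcium-binding proteins, 5 of 9 rose and 2 fell, against 37.4% and 16.9% of all genes. On the TPM scale 2 were higher and 3 lower. S100a6 was 1284, 594 and 512 FPKM against 5.15, 4.32 and 5.28 (6.95 ± 0.59) and S100a4 changed by 6.27 ± 0.53, while S100g, calbindin-D9k, and S100a1 fell (-7.15 ± 0.89 and -1.69 ± 0.40). Of 13 genes tied to renal cancer 4 rose and 1 fell, a lower share of rises than the 37.4% of all genes. After median-of-ratios scaling 4 were higher and 5 lower, and after rescaling to TPM 2 and 8. Gpnmb, a marker of TFE3/MITF-driven renal tumors, was 4.69, 7.05 and 10.6 FPKM in the allografts and listed at 0 in all sorted libraries, and Cp, ceruloplasmin, stood at 215, 146 and 45.2 against 5.27, 3.65 and 3.62 (4.47 ± 0.57, adjusted p = 5.84e-05). Mitf (1.83 ± 0.33) and the tumor suppressor Vhl (1.58 ± 0.21) were the other 2 that rose. The tumors were not sorted, and the part of macrophages and other host cells in the Gpnmb and Mitf values was not tested. Tsc1 was the member that fell (-0.45 ± 0.17, adjusted p = 0.04), a call lost without allograft 3 or sorted library 1 or 2 (adjusted p = 0.079 to 0.14).

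Of 20 immediate early and dissociation genes 10 fell and 3 rose, against 16.9% and 37.4% of all genes. On the TPM scale 15 were lower and 1 higher. Only the comparison cells were sorted, and the part of that step in these values was not tested. Fos was 51.9, 93 and 17.4 FPKM in the allografts and 397, 252 and 155 in the sorted cells (-2.48 ± 0.66, adjusted p = 0.0064), Egr1 5.37, 9.8 and 6.12 against 91.3, 76.6 and 44.1 (-3.12 ± 0.33) and Jun 25.4, 43.6 and 20.9 against 329, 225 and 124 (-2.83 ± 0.46). Sorted library 1 was highest for the summed list and library 3 lowest. Hspa1a, a heat shock gene, fell with them (-3.40 ± 0.55, adjusted p = 0.0003). The AP-1 members Fosl1 (2.68 ± 0.29) and Fosl2 (2.19 ± 0.35) and the early response gene Ier3 (2.05 ± 0.23) went the other way.

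**Figure D4:**
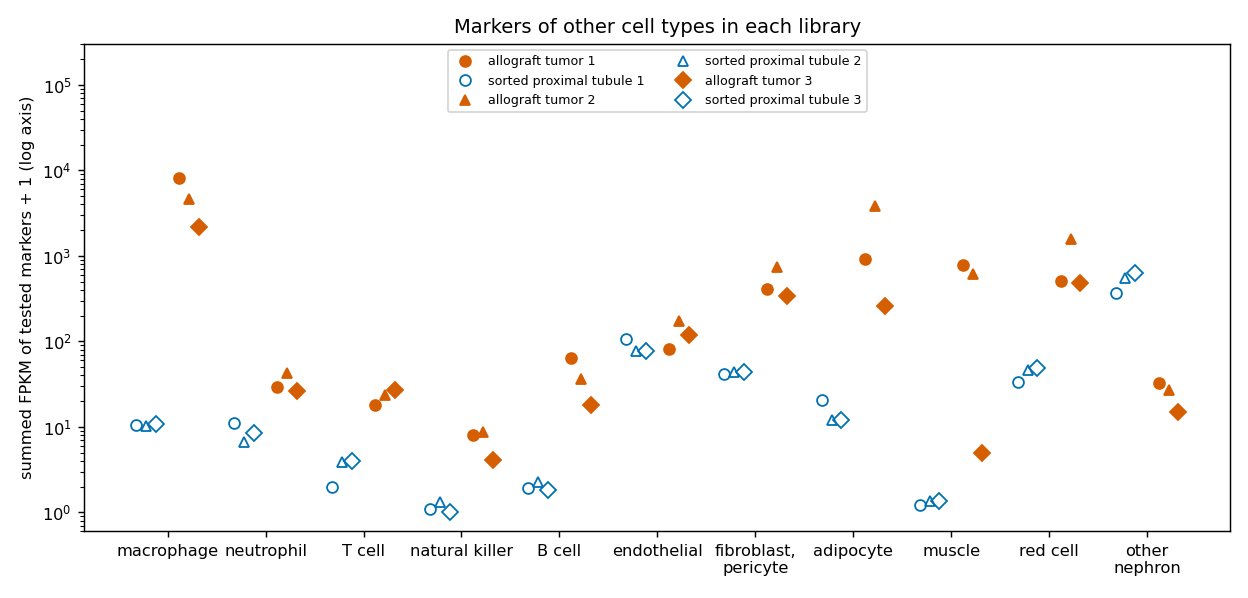
Summed FPKM + 1 (log axis) of the marker lists of other cell types in allografts 1 to 3 and sorted libraries 1 to 3. Macrophage markers reach 2161 to 8232 FPKM in the allografts, adipocyte and muscle markers differ most among the 3 tumors, and T cell and natural killer cell markers sum to at most 26.2 FPKM in any library.

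Macrophage genes rose in 15 of 15, with sums of 8232, 4600.5 and 2161 FPKM in allografts 1 to 3 and 9.36 to 9.85 in the sorted cells. Lyz2, lysozyme, was 2249, 1266 and 573 FPKM against 0.911, 0.525 and 1.32 (9.28 ± 0.62, adjusted p = 2.78e-06), and C1qa, of complement C1q, 1708, 913 and 408 against 0.597, 0.627 and 0.338 (9.15 ± 0.72). Allograft 1 held the most and allograft 3 the least of the summed list. Csf1r (4.52 ± 0.53) and Adgre1 (5.96 ± 0.76), receptors that define macrophages, rose as well, as did the chemokine Ccl8, at 458, 1154 and 136 FPKM and listed at 0 in the sorted libraries. MHC genes rose in 12 of 14, class II the most: H2-Aa was 1454, 544 and 259.8 FPKM, in the same order among tumors as the macrophage sum, against 9.81, 7.73 and 11.9 (5.79 ± 0.52, adjusted p = 9.80e-06). Interferon-response genes rose in 10 of 14, with Ifi27l2a outside that list at 924, 1317 and 127 FPKM, again least in allograft 3. The part of macrophages in the MHC, interferon, protease and chemokine results was not tested.

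Lymphocyte markers were low. Of 14 T cell genes 6 rose, with sums of 17.2, 22.5 and 26.2 FPKM. The risen shares of the T cell, B cell and natural killer lists were near the 37.4% of all genes. On the TPM scale 3 T cell, 3 B cell, 2 natural killer and 1 neutrophil genes were higher. Cd3d was 2.55, 3.72 and 11.8 FPKM (2.52 ± 0.39, adjusted p = 0.00023) and Cd4, which macrophages can carry too, 5.84, 7.35 and 4.95 (2.53 ± 0.20), while the defining Cd3e (0.179, 0.0413 and 0.13) and Cd3g (0.411, 0.254 and 0) were at or near 0 and called on neither scale. Of 10 B cell genes 3 rose. Ighm, the immunoglobulin mu chain, was 55.6, 28.9 and 6.2 FPKM and listed at 0 in the sorted cells (4.52 ± 0.68, adjusted p = 0.00018), and Cd22 (2.00 ± 0.43) and Cd79b (1.52 ± 0.31) rose with it. The defining Cd79a (0, 0.137 and 0.143) and Ms4a1 (0.312, 0.275 and 0.435) were near 0 and called on neither scale. Natural killer markers summed to 6.96, 7.63 and 3.08 FPKM, with 3 of 7 risen (5 without allograft 3), Klrk1 (1.29 ± 0.30), Klrd1 (0.90 ± 0.25) and Prf1 (0.59 ± 0.21). Of 10 neutrophil genes 5 passed the filter and 3 rose, Csf3r (2.14 ± 0.33), S100a8 (2.29 ± 0.75, adjusted p = 0.019) and S100a9 (2.33 ± 0.86, adjusted p = 0.032). The calls of Prf1, S100a8 and S100a9 were lost without allograft 1 or 2 or any 1 sorted library (adjusted p = 0.079 to 0.14, 0.053 to 0.15 and 0.059 to 0.15). Endothelial genes rose in 3 of 13, a lower share than the 37.4% of all genes, and fell in none (1 without allograft 2). On the median-of-ratios scale 3 were higher and 3 lower, and on the TPM scale 1 and 6. The sums were 81, 171 and 117 FPKM against 75.4 to 105 and overlapped. Vwf (2.31 ± 0.36), Cldn5 (1.72 ± 0.27) and Pecam1 (1.40 ± 0.29, adjusted p = 0.0016) rose, and the call of Pecam1 was lost without allograft 2 or sorted library 2 or 3 (adjusted p = 0.12 to 0.16).

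Fat and muscle RNA varied between the tumors. Adipocyte genes summed to 907, 3799.5 and 255 FPKM over the 5 of 6 that passed the filter on low values, which they did, apart from Fabp4, only through the allografts where they are high. Adipoq, adiponectin, was 79.5, 218 and 13.7 FPKM and Cfd, adipsin, 401, 1557 and 63.8, highest in allograft 2 and lowest in allograft 3. The list's sum was 10.9 to 19.5 FPKM in the sorted libraries. Of 6 muscle genes 3 passed, again only through the allografts, and summed to 783, 619 and 3.9, while Ckm, Myh4 and Myl1 did not pass. Acta1, skeletal actin, was 267, 227 and 1 FPKM (5.50 ± 1.45, adjusted p = 0.006), so allograft 3 was nearly free of it. Red cell genes, mostly hemoglobin, summed to 503, 1559 and 487 FPKM against 32.2 to 48.3 over the 4 of 6 listed that were tested, which rose, most in allograft 2; the call of the hemoglobin gene Hbb-bt (2.95 ± 0.76, adjusted p = 0.0053) was lost without that tumor (adjusted p = 0.056). Male and female transcripts differed too. Ddx3y, on the Y chromosome, was 22.5, 22.8 and 8.94 FPKM in the allografts and listed at 0 in the sorted libraries, and Xist, transcribed from the inactive X chromosome, was 63.7, 48.9 and 127 against 183, 156 and 141. Both kinds of transcript were present in each allograft. The sexes of donors and hosts are not given, and the part of sex in the other results was not tested.

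The allografts also differed from the primary tumors and from the lung metastases, which share the Lats1/2 deletion. On both scales 20% of all genes were higher and 20.3% lower (40.3% in all) in the allografts than in the primary tumors, and 9.32% were higher and 13% lower than in the metastases. These comparisons share the allograft libraries with the main one, so the values are given side by side. Of 26 proximal tubule transporters 25 were lower than in primary tumors (median difference -4.09) and 2 lower than in metastases (median 0.10). Slc34a1 was 6.17, 833 and 166 FPKM in primary tumors 1 to 3 and 0.0169, 0.0609 and 0.0951 in metastases 1 to 3. Primary tumor 1 held far less than primary tumors 2 and 3, and every allograft was below all 3. RNA of tumor cells and of kidney cut out with a tumor cannot be told apart in these libraries.

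Division genes stood higher in the allografts than in the primary tumors in 16 of 16 S-phase and 18 of 18 mitosis genes, against 20% of all genes. Against the metastases 7 of 16 and 0 of 18 were higher, with 9.32% of all genes higher. Top2a was 38.4, 4.31 and 4.81 FPKM in primary tumors 1 to 3 and 51.7, 61 and 53.3 in metastases 1 to 3. Cdkn2a separated the allografts from both. It stood at 50.9, 24.2 and 54.1 FPKM in the allografts, 0.898, 1.09 and 1.3 in the primary tumors (4.32 ± 0.27, adjusted p = 1.31e-05) and 1.45, 0.913 and 1.02 in the metastases (4.30 ± 0.27, adjusted p = 3.20e-06), without overlap. Ankrd1 was 27.9, 3.26 and 4.74 FPKM among primary tumors and 53.3, 48.8 and 49.7 among metastases, below the allografts in each case (log2 differences 5.46 ± 0.59 and 2.93 ± 0.59, adjusted p = 0.00016 and 0.0054). Mmp9 was 5.9, 0.658 and 1.35 and 8.96, 9.27 and 22.2 FPKM, also below the allografts (5.45 ± 0.52 and 3.30 ± 0.52), and Tead2 13.8, 1.8 and 3.11 and 16.3, 15.9 and 12.9 (3.12 ± 0.49 and 1.60 ± 0.49).

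**Figure D5:**
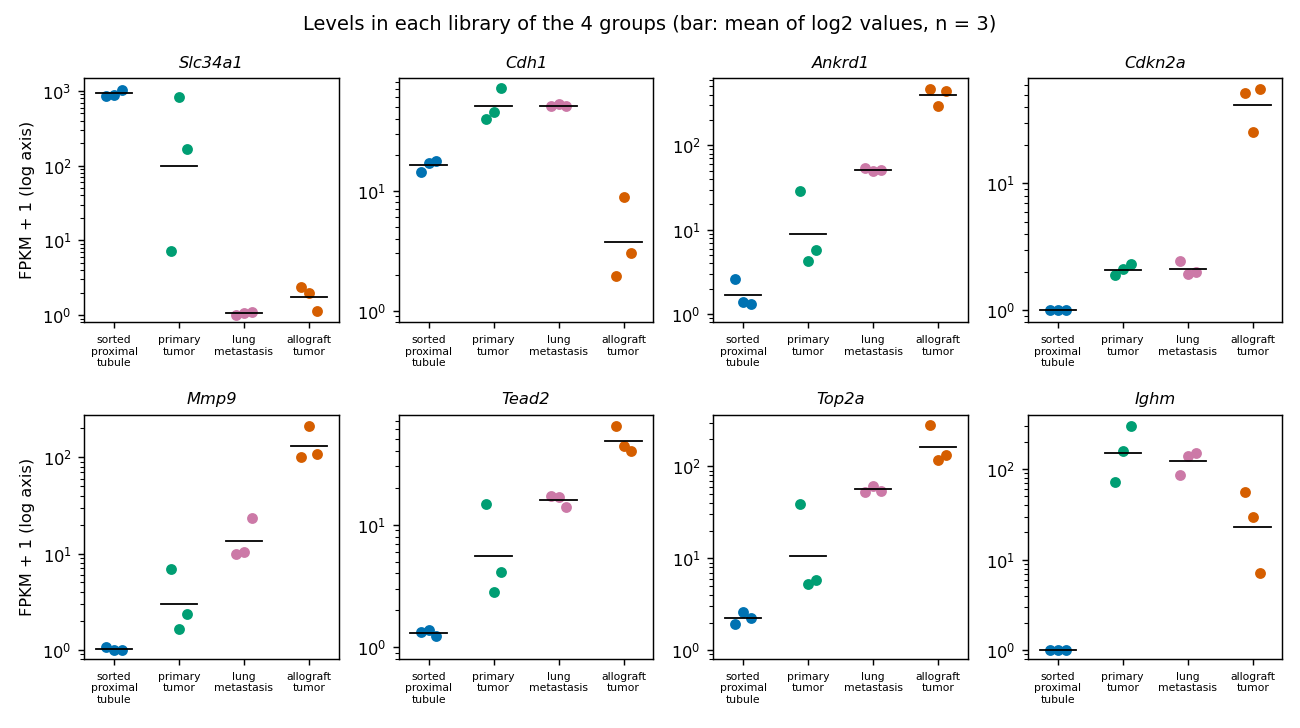
FPKM + 1 (log axis) of 8 genes in every library of the 4 groups: sorted proximal tubule, primary tumors, lung metastases and allograft tumors. Ankrd1, Cdkn2a, Mmp9 and Tead2 are highest in the 3 allografts, and Slc34a1 is highest in the sorted cells and in primary tumors 2 and 3.

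Some genes stood lower in the allografts than in either other tumor. Of all genes 20.3% were lower than in the primary tumors and 13% lower than in the metastases. Epithelial genes were lower than in the primary tumors in 18 of 23 and lower than in the metastases in 16 of 23. Cdh1 was 38.6, 44.2 and 71 FPKM in the primary tumors (-3.76 ± 0.45, adjusted p = 0.00028) and 49.4, 51.4 and 50 in the metastases (-3.78 ± 0.45, adjusted p = 0.00024). T cell genes were lower in 12 and 11 of 14 and B cell genes in 8 and 9 of 10. Ighm was 71, 157 and 296 FPKM among primary tumors and 85, 139 and 149 among metastases. Endothelial genes were lower in 8 and 12 of 13, with Cldn5 at 36.6, 61.3 and 75.5 FPKM in the metastases, which were taken from lung. Macrophage genes were higher than in the primary tumors in 6 of 15 and than in the metastases in 1, against 20% and 9.32% of all genes. The adipocyte and muscle genes that passed the filter (5 of 6 and 3 of 6 listed) were higher than in both, but all of these except Fabp4 could pass it only through the allografts.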

How the data were processed

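RNA was extracted with an RNeasy Micro kit, per the labels' protocols. The deposited expression table gives FPKM per gene, with no counts. The submitters' processing notes name bcl2fastq 2.17.1.14, Salmon and the builds GRCm38 and mm10; how Salmon's output became FPKM, and the kind of library, were in none of the sources used here. Depth is unknown for the sorted libraries.

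Genes that reached 1 FPKM in any 3 of 12 libraries (16313) were fitted with limma 3.58.1 in R 4.3.3 on log2(FPKM + 1), the 4 groups together (8 residual degrees of freedom), with a mean-variance trend. Benjamini-Hochberg adjustment ran over all genes tested, and calls needed an adjusted p under 0.05. The fit was repeated after median-of-ratios scaling (factors from 14079 genes), and a gene was said to rise or fall only when both fits gave that call. The fit was tested on simulated data.

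The members and the 42 gene lists were chosen with earlier results of these data known. Genes were named by a fixed rule: genes of the design (Lats1, Lats2, Slc34a1, Yap1, Wwtr1 and sex-linked genes), the 10 largest rises and falls without overlap at 10 FPKM or more in the higher group (apart from predicted genes, pseudogenes, receptor segments and microRNAs), and per list the 4 largest changes in the leading direction, the 2 largest in the other, the most abundant member and preset members. Other genes, such as Ajuba, F3, Ptpn14, Tead1, Clcn5, Tjp1, Pkp2, Ier3, Aadat, Slc3a1, Epas1, Erbb2 and Erbb4, were named after their values were seen. A few genes that the rule names are not reported here. The alternatives tried were other scalings, pseudocounts, filters, group sets, weights, a replicate block and leaving out each library in turn. Promoter windows came from RefSeq on GRCm38.p6.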

Additional observations from a re-analysis of the deposited data

How the results depend on the processing

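The balance of rises and falls depended on the scale. As deposited, 8521 genes were called higher and 2755 lower. Median-of-ratios scaling gave 6106 and 4582, the same scaling on nuclear protein-coding genes alone 5381 and 4371, leaving out the 50 most abundant genes 5554 and 4620, quantile normalization 4982 and 4980, and TPM rescaling 3503 and 6908. The share of higher among called genes was 75.6% as deposited, 57.1% after median-of-ratios scaling, 55.2% on protein-coding genes, 54.6% without the 50 most abundant, 50.01% after quantile normalization and 33.6% after TPM rescaling. The median log2 change was 0.66, 0.19, 0.14, 0.13, 0.01 and -0.37 in that order. TPM rescaling divides each library by its own sum, which includes Mir6236. The protein-coding scaling, and the calls on both scales without each library, were chosen after seeing the data.

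Leaving out each library in turn gave 7909 to 8420 genes higher and 2443 to 2657 lower as deposited, and 5524 to 5973 and 2443 to 2657 on both scales. Pseudocounts of 0.1 and 5, other filters on low values, a fit of the 2 groups alone, array weights and a robust fit stayed within 1.5 times of both counts. With the replicate number as a replicate block the counts were 8429 and 2704. Same-numbered allograft and sorted libraries correlated at -0.018, 0.034 and 0.0066 in their deviations from the group means, and not every library correlated best with its own number, so the numbers were not taken to pair them. In every one of the 21 alternatives that gave them a value, 3119 risen and 2128 fallen genes kept their call, and 3 genes were called in opposite directions as deposited and after median-of-ratios scaling.

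Of 168 genes given with a log2 change, 122 had the same call and sign under every alternative and 5 changed sign, for which the cause was not tested. Ccn1 (0.18 as deposited) was -0.47 with median-of-ratios scaling, -1.24 with TPM rescaling, -0.41 with quantile normalization, -0.54 without the 50 most abundant genes, -0.45 with protein-coding scaling and -0.21 to 0.49 without single libraries, -0.21 being without sorted library 3. Lats2 (0.46) was -0.14, -0.84, -0.083, -0.20 and -0.12 under the first 5 of these. Myc (0.52) was -0.093, -0.82, -0.16 and -0.077, and Wwtr1 (0.60) -0.025, -0.76, -0.091 and -0.010, under the same settings apart from quantile normalization, and F3 was -0.091 after TPM rescaling.

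Without 1 library, these list counts on both scales moved by more than 1.5 times. Fallen genes ranged from 1 to 3 for podocyte (2 with every library), 2 to 6 for Hippo (3), 1 to 2 for tubule injury (1), 0 to 1 for endothelial (0), 1 to 2 for cell cycle inhibitor (1), 1 to 8 for nuclear respiratory (6) and 0 to 1 for renal cancer lists (1). Risen genes ranged from 1 to 4 for epithelial (4), 1 to 3 for neutrophil (3) and 2 to 5 for natural killer lists (3). Depth limits the low values: the sorted libraries showed no steps of whole reads, so their depth is unknown, and a gene listed at 0 there is not shown to be absent.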

Other observations

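Classes of RNA outside the gene lists also differed between the groups; the genes named in these paragraphs were chosen after their values were seen. Of 948 long noncoding RNA genes tested, 481 (50.7%) rose and 81 (8.54%) fell, against 37.4% and 16.9% of all genes. Pseudogenes gave 87 risen (52.1%) and 8 fallen of 167, and microRNA genes 130 risen (30.4%) and 2 fallen of 427. Protein-coding genes outside the histone clusters gave 5240 risen (36.2%) and 2655 fallen (18.3%) of 14466. Malat1, an abundant nuclear noncoding RNA, fell (-1.55 ± 0.41, adjusted p = 0.0067). Gas5, which hosts small nucleolar RNAs in its introns, rose (2.05 ± 0.28). Pseudogenes share sequence with their parent genes, so their reads can come from either.

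Some of the largest rises were in entries of other kinds. Mir6236 was 1082170, 317686 and 726226 FPKM in allografts 1 to 3 and 37, 57.2 and 0 in the sorted libraries (15.56 ± 1.40, adjusted p = 9.55e-06). Lars2, the mitochondrial leucyl-tRNA synthetase, stood at 20297, 5920.4 and 960.2 FPKM against 11.6, 10.5 and 10.8 (8.67 ± 0.83, adjusted p = 1.25e-05). Allograft 1 held the most Lars2 and allograft 3 the least, and the same order held for the antisense gene Gm15564, at 3242, 1041 and 118 FPKM and listed at 0 in the sorted libraries. What these entries count was not tested.

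Of the tested genes, 1272 were listed at 0 in all 3 sorted libraries and 776 of these rose. In all 3 allografts 111 were listed at 0, and 18 of these fell. A gene at 0 throughout a group cannot be lower in the other group, so choosing such genes fixed the direction of these calls. The counts therefore do not bear on the balance of rises and falls. The depth of the sorted libraries is unknown, so a 0 there does not show absence.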
